A study of Macaca mulatta with 20 samples.

Results

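Cadherin and protocadherin genes were followed in RNA of the rhesus macaque from 5 sources: cerebral cortex, pancreas, thymus, testis and a line of immortalized fibroblasts. A gene was a member where its only symbol in the array annotation was CDH or PCDH followed by a number, or by A, B or G and a number. Letters after the number were allowed, which took in PCDH11X, PCDHB17P and PCDHB18P. The last of these, PCDHB17P and PCDHB18P, are counted with the clustered protocadherins. This gave 57 genes of 21951 with a symbol on either array type. Rhesus Macaque Genome Arrays held 38 of the 14132 genes named there, and Human Genome U133 Plus 2.0 Arrays held 53 of 19775. Both array types held 34 of the members, 4 were on rhesus arrays alone and 19 on human arrays alone. Where a gene had several probe sets, the brightest by its mean over the 10 arrays of a type was taken, and 3 rhesus and 13 human probe sets with several symbols were left out. The rule used no measured value.

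From every source, 2 rhesus and 2 human arrays were hybridised, 20 in all, each with labelled RNA made from 5 ug of total RNA. These are technical replicates by the labels, so p-values measure the spread between arrays of 1 RNA per source, not between animals. How many animals gave RNA, and their age and sex, was not known here. The fibroblasts are a line kept dividing in culture, whereas the other sources are whole tissue. In whole tissue, fewer cells of a type and less RNA per cell cannot be told apart. Source labels were compared with marker genes. Neuron markers were higher in cortex for 5 of 5 measured on rhesus and 7 of 7 on human arrays, as were 4 of 4 exocrine markers in pancreas on both types, 3 of 3 and 4 of 5 thymocyte markers in thymus, 4 of 4 Leydig and Sertoli cell markers in testis on both types, and 4 of 5 and 4 of 6 fibroblast markers in the fibroblasts. Of all genes, 16.6% on rhesus and 11% on human arrays were higher in cortex, and 9.81% and 5.01% in pancreas. In thymus these shares were 16.7% and 9.65%, in testis 16.1% and 8.67%, and in the fibroblasts 18% and 11.3%. Markers of astrocytes, smooth muscle and germ cells were listed too, and their counts are not given here. Values are log2 expression values. Control probe sets for transcripts that were not spiked had means of up to 3.12 on both array types, and this control level marks where a gene cannot be told from background.

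Cadherins are membrane proteins that hold neighbouring cells together through calcium-dependent contacts between their outer domains. Classical cadherins of type I and type II bind catenins on the inner side of the membrane, which link them to the actin skeleton. Protocadherins lack the catenin binding site and are best known from the nervous system. The delta protocadherins are single genes, and the clustered alpha, beta and gamma protocadherins are neighbouring genes used in combinations by neurons for self-recognition. Among the members were 5 type I cadherins, 13 type II cadherins, 5 other cadherins, 4 delta1, 5 delta2, 3 other single and 22 clustered protocadherins. No gamma gene fitted the rule, since their symbols have another letter before the number.

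Cortex was the source in which most members were high. On rhesus arrays 17 of 38 members were higher in cortex than the mean of the other 4 sources, which is 44.7%, against 16.6% of all genes. On human arrays 17 of 53 were higher in cortex, which is 32.1%, against 11% of all genes. A gene counted as higher or lower at a limma adjusted p below 0.05 with a log2 difference of at least 1. Lower members in cortex numbered 4 of 38 on rhesus arrays, against 21.1% of all genes, and 1 of 53 on human arrays, against 9.99%. Among the 34 members on both array types, 9 were higher in cortex on both: CDH8, CDH9, CDH10, CDH11, CDH12, CDH18, PCDH8, PCDH10 and PCDHB4.

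**Figure D1:**
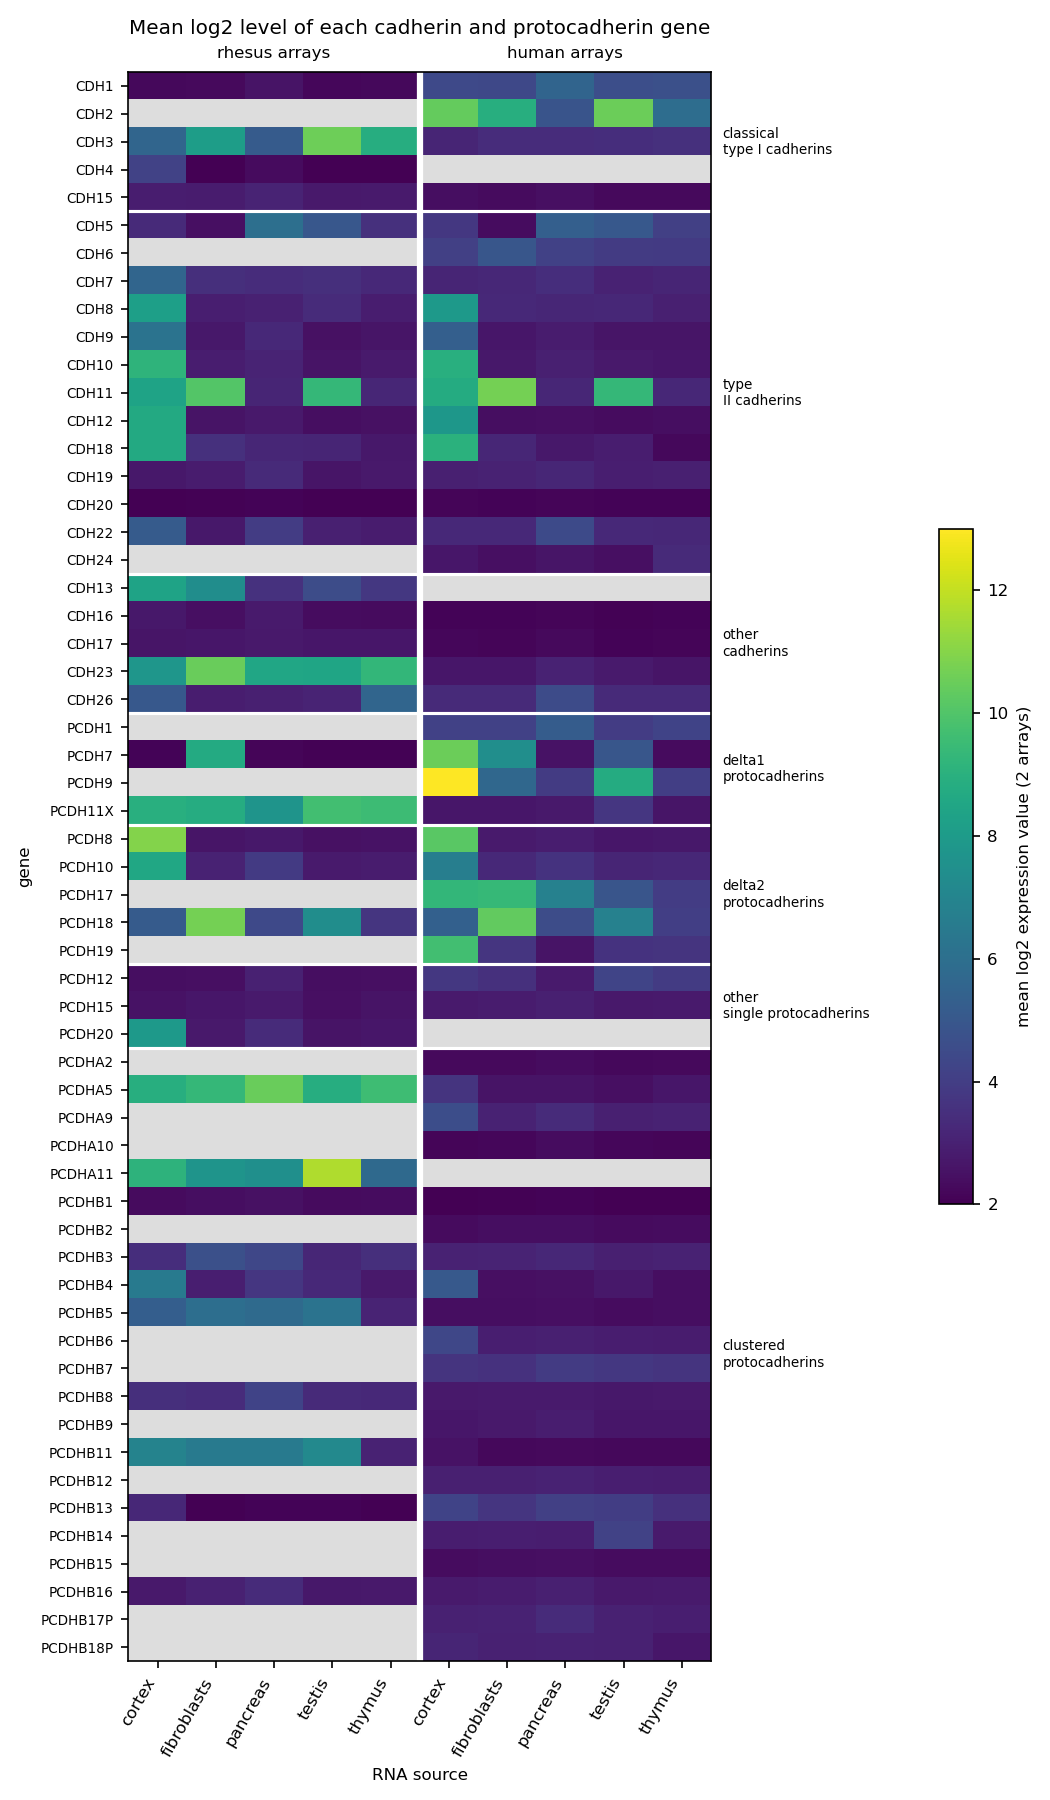
Mean log2 expression value of each member (rows) in each source (columns), 2 arrays per source, for rhesus arrays on the left and human arrays on the right. Grey marks a gene with no probe set of its own symbol on that array type. The cortex column is bright for CDH8 to CDH12, CDH18, PCDH8, PCDH10 and, on human arrays, PCDH9 and PCDH19.

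Thymus stood at the other end. Members lower in thymus numbered 16 of 38 on rhesus arrays, which is 42.1% against 18.1% of all genes, and 12 of 53 on human arrays, which is 22.6% against 10.1%. Higher in thymus were 2 members on rhesus arrays, CDH3 and CDH26, against 16.7% of all genes, and 0 on human arrays by limma, against 9.65%. At an unadjusted p below 0.05, 1 member, CDH24, was above the other sources in thymus on human arrays, and an ordinary analysis of variance also gave 0. The median difference of the members in thymus was -0.68 on rhesus arrays, against -0.06 over all genes, and -0.17 on human arrays, against -0.04.

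Lower calls outside cortex fell mostly on members that were high in cortex, whose cortex level enters the mean of the other sources. In thymus 12 of the 16 rhesus and 11 of the 12 human lower calls fell on genes that were also higher in cortex. Lower in testis were 10 rhesus members (26.3% against 11.2% of all genes) and 8 human ones (15.1% against 5.63%). Of these, 9 of 10 and 8 of 8 were also higher in cortex. Lower in the fibroblasts were 10 rhesus members (26.3% against 14.9% of all genes) and 8 human ones (15.1% against 8.1%). Of these, 9 of 10 and 7 of 8 were also higher in cortex. Lower in pancreas were 13 rhesus members (34.2% against 23.8% of all genes) and 12 human ones (22.6% against 15.7%). Of these, 8 of 13 and 10 of 12 were also higher in cortex. How often the lower calls of all genes fell on genes higher in cortex was not counted. The lower calls that did not go with cortex were CDH5 in the fibroblasts, CDH3, PCDH11X, PCDH12, PCDH18, PCDH7 and PCDHA11 in pancreas, PCDH7 in testis, and PCDH18, PCDH7, PCDHA11 and PCDHB5 in thymus.

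**Figure D2:**
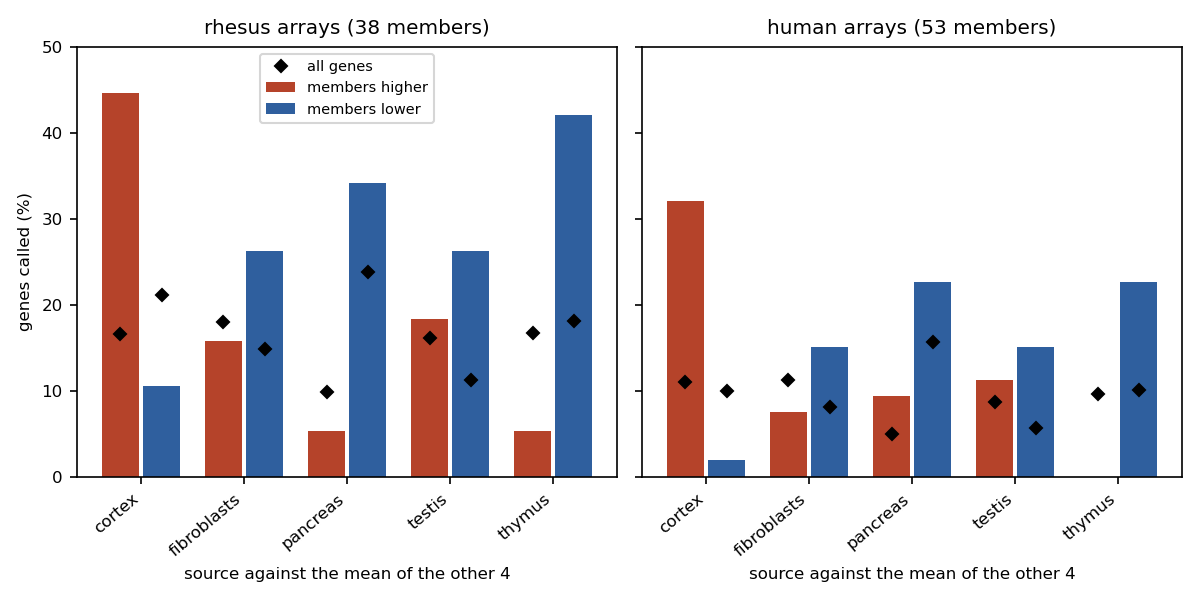
Share of members called higher (red bars) or lower (blue bars) in each source against the mean of the other 4, in percent, with 38 members on the rhesus and 53 on human arrays. Black diamonds give the share of all genes on the array type. Higher calls stand above the diamond in cortex on both array types, 44.7% against 16.6% and 32.1% against 11%.

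A stricter count asked for a single highest source, higher than each of the other 4 by at least 1 on the log2 scale at an adjusted p below 0.05. On rhesus arrays 20 of 38 members had such a source, against 30.7% of all genes, and on human arrays 19 of 53, against 19.4%. Cortex was that source for 14 members on each array type, which is 36.8% of the rhesus members against 9.23% of all genes and 26.4% of the human members against 6.38%. The fibroblasts held 3 rhesus and 2 human members, against 7.01% and 4.87% of all genes. Testis held 2 and 1, against 4.17% and 2.36%, and pancreas 1 and 2, against 4% and 2.26%. Thymus held 0 on either array type by limma, against 6.3% and 3.58% of all genes. At unadjusted p-values below 0.05 and with no minimum, thymus held 1 member on each, CDH26 on the rhesus and CDH24 on human arrays, and the ordinary analysis of variance gave 0 on both.

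Among type I cadherins, the textbook markers of tissue classes, CDH2 could be read on human arrays alone. CDH2 encodes N-cadherin, the cadherin of neurons and of mesenchymal cells. Its levels were 10.33 and 10.46 in cortex, 10.56 and 10.53 in testis, 8.86 and 8.96 in the fibroblasts, 6.07 and 5.77 in thymus and 4.03 and 5.69 in pancreas. The fibroblasts stood 2.99 above thymus (SE 0.492, adjusted p = 0.00618), but cortex minus fibroblasts, at 1.49, did not pass (adjusted p = 0.0935), nor did thymus minus pancreas, at 1.05 (adjusted p = 0.116). The pancreas arrays differed from each other by 1.66, the largest gap between arrays of a source among all members. Testis minus cortex was 0.15 (SE 0.492, adjusted p = 0.886), so no order between these sources can be read. CDH2 was higher in cortex by 2.84 (SE 0.389, adjusted p = 0.00221) and in testis by 3.02 (adjusted p = 0.00207), and lower in pancreas and in thymus. The fibroblast difference of 0.98 did not pass, although without the second pancreas array it was 1.19 (adjusted p = 0.000496) and with spiked controls as the scale 1.68 (adjusted p = 0.00217), and passed.

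CDH1 encodes E-cadherin, the adhesion protein of epithelia. On rhesus arrays its levels ran from 2.21 to 2.75 on the 10 arrays, at or below the control level in every source, so these arrays measured no difference of at least 1 for it. On human arrays it read 5.60 and 5.53 in pancreas, 4.69 and 4.59 in testis, 4.64 and 4.74 in thymus, 4.28 and 4.60 in cortex and 4.61 and 4.13 in the fibroblasts. Both pancreas arrays lay above all 8 others, by 1.03 against the mean of the other 4 sources (SE 0.14, adjusted p = 0.00147), but this difference was -0.09 when spiked controls set the scale and 0.90 after subtraction of array medians. A dimmer human probe set of CDH1, with a mean of 2.31, had no call (pancreas 0.11), and the mean of both was 0.57 higher in pancreas, short of the minimum. The difference of the brightest probe set was 0.97 to 0.99 without the first cortex, the first pancreas or the second fibroblast array of the human type. Pancreas minus thymus, the next source, was 0.88 (SE 0.177, adjusted p = 0.00849). Of the epithelial marker genes, 5 of 6 were higher in pancreas on rhesus arrays, against 9.81% of all genes. On human arrays 5 of 7 were higher there, against 5.01%. The mean level of these markers on human arrays was 6.40 to 6.52 in pancreas against 3.10 to 4.78 in the other sources. The part of epithelial cells in the CDH1 difference was not tested.

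CDH3 encodes P-cadherin, a cadherin of placenta and of basal epithelium. On rhesus arrays it read 10.64 and 10.48 in testis, 8.87 and 8.83 in thymus, 8.03 and 8.23 in the fibroblasts, 5.52 and 5.65 in cortex and 5.17 and 5.15 in pancreas. No source overlapped another, and testis was the single highest, 1.71 above thymus (SE 0.0876, adjusted p = 1.17e-05). On human arrays all 10 values lay between 3.00 and 3.63. CDH4, the R-cadherin of retina and brain, was on rhesus arrays alone. It read 3.80 and 4.50 in cortex and at most 2.46 elsewhere, which is a difference of 2.11 (SE 0.175, adjusted p = 7.41e-05). CDH15, the cadherin of muscle, was at or below the control level in every source mean on both array types.

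**Figure D3:**
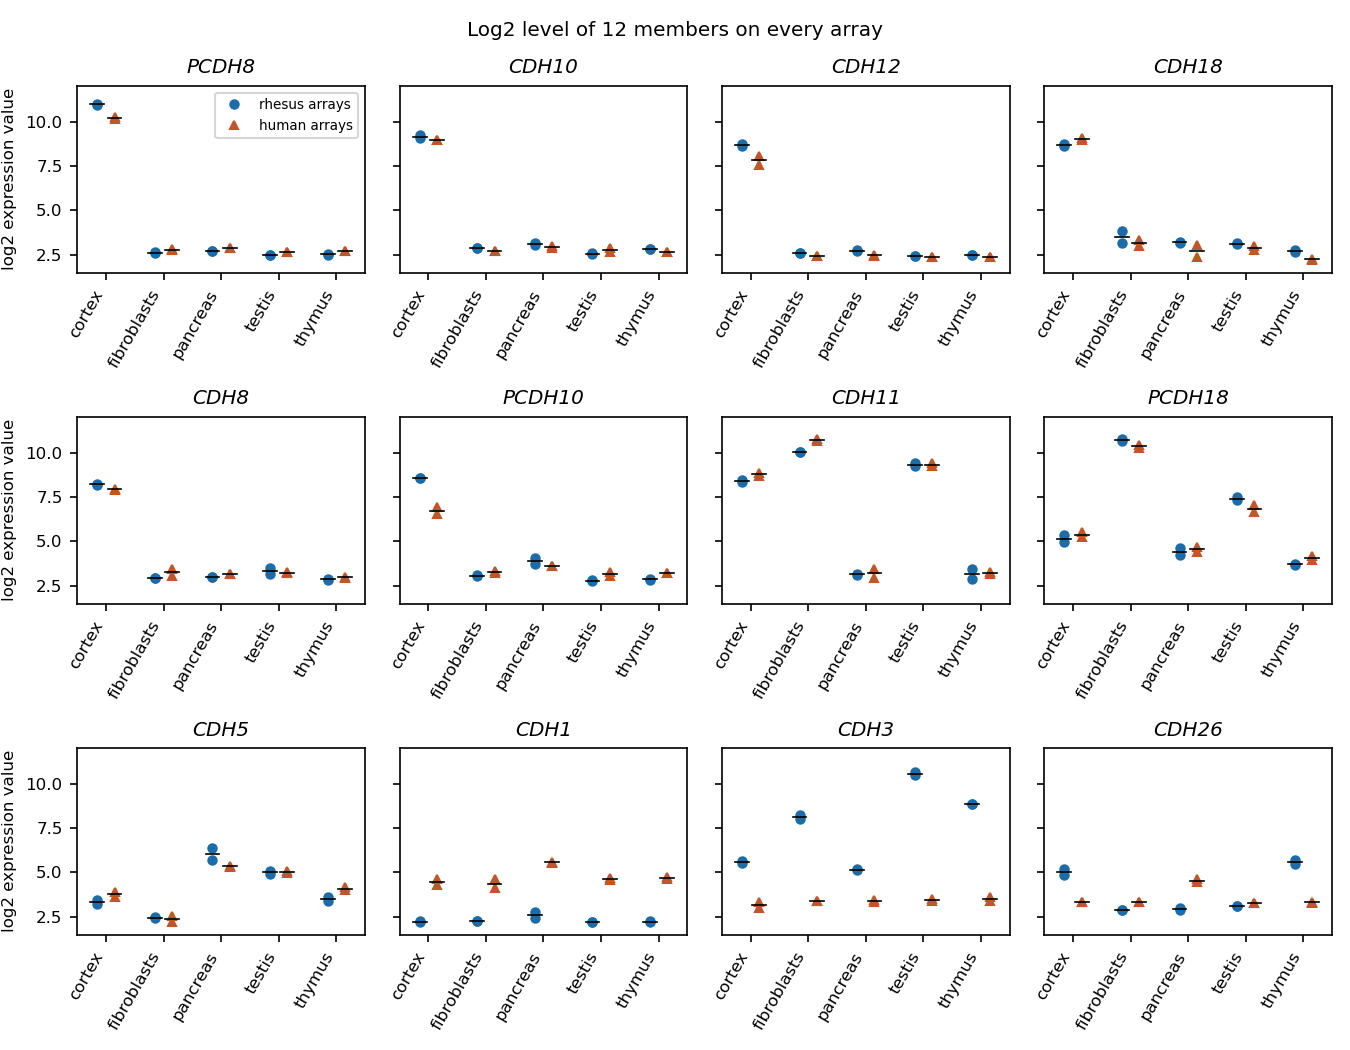
Log2 expression value of 12 members on every array, with sources on the horizontal axis, rhesus arrays as blue circles, human arrays as orange triangles and short lines for the mean of 2 arrays. PCDH8, CDH10, CDH12, CDH18, CDH8 and PCDH10 stand high in cortex alone, CDH11 is high in 3 sources, and CDH3 spans 5.15 to 10.64 on rhesus arrays against 3.00 to 3.63 on human arrays.

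Type II cadherins, many of which are expressed by subsets of neurons, made up the largest group of cortex genes. Higher in cortex were 8 of 11 on rhesus arrays, against 16.6% of all genes, and 6 of 13 on the human ones, against 11%. CDH10 read 9.05 and 9.23 in cortex on rhesus arrays and 2.54 to 3.16 on the 8 others, and 8.95 and 8.96 against 2.63 to 3.01 on human arrays. It stood 6.03 (SE 0.0681, adjusted p = 8.54e-09) and 6.0 (SE 0.0855, adjusted p = 9.26e-08) above the next source. CDH12 read 8.63 and 8.75 in cortex on rhesus arrays, against at most 2.78 elsewhere, and 8.05 and 7.57 against at most 2.48 on human arrays. For both genes the other 4 sources lay near the control level, so the differences were taken against background.

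CDH18 and CDH8 had the same order of cortex above all else. CDH18 read 8.76 and 8.61 in cortex on rhesus arrays against 2.64 to 3.83 elsewhere, and 9.05 and 8.97 against 2.23 to 3.32 on human arrays. CDH8 read 8.25 and 8.18 in cortex on rhesus arrays and 7.95 and 7.91 on human arrays, with no other array above 3.53. CDH9 was lower in level, with cortex at 6.08 and 6.26 on the rhesus and 4.90 and 5.78 on human arrays. In the table of rhesus genes on assembly T2T-MMU8v2.0, CDH10, CDH9 and CDH6 are neighbours, as are CDH8 and CDH11, among protein-coding genes. Of the neighbour CDH6, a cadherin known from kidney, the human arrays read 4.00 and 4.14 in cortex and 4.67 and 5.22 in the fibroblasts, and no source of its brightest probe set was called. Its fibroblast difference was 0.94, and 2 of its 5 dimmer probe sets were called there, at 1.93 and 2.84.

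By their brightest probe sets, CDH7 and CDH22 were higher in cortex on rhesus arrays only. CDH7 read 5.59 and 5.55 in cortex on rhesus arrays and 3.25 to 3.56 elsewhere, whereas the brightest human probe set ran from 3.03 to 3.48 over all arrays. Human minus rhesus, the cortex difference of CDH7 was -2.24 (SE 0.0673, adjusted p = 3.97e-11). A human probe set of CDH7 with almost the same mean, 3.18 against 3.19, was higher in cortex by 2.26, close in size to the rhesus difference of 2.15. CDH22 read 5.39 and 4.92 in cortex and 4.06 and 3.88 in pancreas on rhesus arrays, and cortex was its single highest source. On human arrays it read 4.69 and 4.29 in pancreas and 3.23 to 3.31 elsewhere, and pancreas was its single highest source, although that difference fell from 1.23 to 0.12 with spiked controls as the scale. CDH20 did not rise above the control level in any source mean, and CDH19 and CDH24 had no call in either direction.

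CDH11 encodes the cadherin of osteoblasts and of mesenchymal cells in general. On rhesus arrays it read 10.02 and 10.05 in the fibroblasts, 9.22 and 9.43 in testis, 8.44 and 8.32 in cortex, 3.18 and 3.12 in pancreas and 2.88 and 3.44 in thymus. On human arrays the values were 10.79 and 10.63, 9.39 and 9.23, 8.68 and 8.86, 2.93 and 3.47, and 3.15 and 3.30, in the same order of sources. The 3 upper sources were clear of the 2 lower ones by over 4 units, and pancreas and thymus overlapped. CDH11 was higher in the fibroblasts by 4.03 (SE 0.14, adjusted p = 1.46e-06) on the rhesus and 4.58 (SE 0.146, adjusted p = 3.69e-06) on human arrays, and higher in testis by 3.14 and 2.84. Fibroblasts stood 0.71 above testis on rhesus arrays (adjusted p = 0.0156), short of the minimum of 1, and 1.40 above it on human arrays (adjusted p = 0.00245).

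CDH5 encodes VE-cadherin, the adhesion protein of endothelial cells that line blood vessels. On rhesus arrays it read 5.70 and 6.36 in pancreas, 5.09 and 4.92 in testis, 3.40 and 3.62 in thymus, 3.21 and 3.43 in cortex and 2.47 and 2.45 in the fibroblasts. On human arrays it read 5.37 and 5.33, 5.07 and 4.99, 4.16 and 3.99, 3.92 and 3.61, and 2.53 and 2.22, again in that order. The cultured fibroblasts were the lowest source on both array types, by -2.0 (SE 0.17, adjusted p = 9.85e-05) and -2.18 (SE 0.111, adjusted p = 2.68e-05). Pancreas was higher by 2.45 (SE 0.17, adjusted p = 3.54e-05) and 1.54 (SE 0.111, adjusted p = 0.000111), and the human difference fell to 0.42 with spiked controls as the scale. Testis was higher by 1.18 and 1.14, and fell short of 1 after quantile normalization, at 0.73 and 0.93. These fibroblast and testis calls came from the brighter of 2 rhesus probe sets. The dimmer one was called in pancreas alone, at 1.31, with -0.13 in the fibroblasts, above cortex, testis and thymus, and -0.39 in testis, and the mean of both gave 0.39 in testis (adjusted p = 0.0693). Pancreas minus testis was 1.02 on rhesus arrays (SE 0.215, adjusted p = 0.00589) and 0.32 on human arrays (SE 0.14, adjusted p = 0.0953), so only the former gave a single highest source.

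Other endothelial markers went partly with CDH5. Of 7 markers, 4 were lower in the fibroblasts on rhesus arrays (PECAM1, VWF, TEK and TIE1), against 14.9% of all genes, and 2 on human arrays, against 8.1%. Higher in pancreas were 3 and 1, against 9.81% and 5.01% of all genes. Their mean level per array was 5.41 to 5.61 in pancreas, 5.10 to 5.25 in thymus, 4.75 to 4.80 in testis, 4.30 to 4.41 in cortex and 3.47 to 3.58 in the fibroblasts on rhesus arrays. Human arrays gave 4.37 to 5.04, 4.84 to 5.02, 4.08 to 4.23, 3.81 to 3.91 and 3.62 to 3.78 in that order. PECAM1 and TIE1 were highest in thymus on both array types, where CDH5 had no call. The part of vessel cells in the CDH5 differences was not tested.

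Among the other cadherins, CDH13 was on rhesus arrays alone. CDH13 encodes T-cadherin, which is anchored by a lipid and has no inner domain. It read 8.42 and 8.35 in cortex, 7.48 and 7.27 in the fibroblasts, 4.34 and 4.79 in testis, 3.65 and 3.95 in thymus and 3.79 and 3.34 in pancreas. Cortex was the single highest source, 1.01 above the fibroblasts (SE 0.211, adjusted p = 0.008) and just past the minimum of 1. CDH13 was higher in both cortex and the fibroblasts by its second probe set too, at 3.96 and 3.16, but that probe set had no single highest source.

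CDH23 and PCDH15 form the tip links of hair cells in the inner ear. CDH23 read 10.43 and 10.52 in the fibroblasts on rhesus arrays, 9.27 and 9.33 in thymus, 8.45 and 8.54 in pancreas, 8.49 and 8.43 in testis and 7.82 and 7.76 in cortex. The fibroblasts were its single highest source, 1.18 above thymus (SE 0.0535, adjusted p = 5.23e-06), and pancreas and testis overlapped. The 4 rhesus probe sets of CDH23 did not share this pattern: the 3 dimmer ones had means of 2.29 to 2.68, and of these 1 was called, higher in testis by 1.86. When its probe sets were averaged, the fibroblast difference of 1.97 became 0.39. On human arrays CDH23 was at or below the control level in every source, and human minus rhesus, its fibroblast difference changed by -2.09 (SE 0.183, adjusted p = 1.54e-06). PCDH15 was at or below the control level in every source on both array types, as were CDH16 and CDH17, the cadherins of kidney and of intestine.

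CDH26 gave opposite calls. On rhesus arrays it read 5.49 and 5.71 in thymus, 5.20 and 4.87 in cortex and 2.88 to 3.11 on the 6 arrays of the other sources. On human arrays it read 4.62 and 4.44 in pancreas and 3.30 to 3.33 on the 8 others. Pancreas was thus lower by -1.21 (SE 0.0969, adjusted p = 6.85e-05) on the rhesus and higher by 1.22 (SE 0.042, adjusted p = 5.35e-06) on human arrays, and the change of 2.43 between array types passed its own test (SE 0.114, adjusted p = 4.6e-09). The human pancreas difference fell to 0.11 with spiked controls as the scale, and the 3 other human probe sets and the other rhesus one had no call. With probe sets averaged the pancreas differences were -0.62 and 0.42, so neither was called.

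Delta1 protocadherins were led by PCDH9, which the human arrays alone could read. It read 12.95 and 13.01 in cortex, 8.79 and 8.75 in testis, 5.54 and 5.84 in the fibroblasts, 3.84 and 3.97 in pancreas and 3.82 and 4.23 in thymus. Cortex stood 4.21 above testis (SE 0.154, adjusted p = 6.48e-06), and only pancreas and thymus overlapped. Testis was higher than the mean of the other sources by 2.12 (SE 0.122, adjusted p = 6.54e-05) with the brightest probe set, but lower by -1.30 with the next, and -0.07 with the mean of the 4. The cortex difference was 7.38, 7.99 and 3.77 by its 3 brightest probe sets. PCDH20, a single protocadherin outside the delta1 group and its neighbour among protein-coding genes of the rhesus gene table, read 8.04 and 7.75 in cortex on rhesus arrays and 2.57 to 3.42 elsewhere. PCDH20 was on no human array under its own symbol, and PCDH9 on no rhesus array, so the neighbours could not be compared on 1 array type.

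PCDH7, the brain and heart protocadherin, differed most between array types. On rhesus arrays it read 8.69 and 8.76 in the fibroblasts and 2.02 to 2.17 on the other 8 arrays. On human arrays it read 10.53 and 10.50 in cortex, 7.58 and 7.30 in the fibroblasts, 4.84 and 5.03 in testis, 2.59 and 2.49 in pancreas and 2.31 and 2.30 in thymus. Cortex was thus lower by -1.63 (SE 0.0291, adjusted p = 5.03e-08) on the rhesus and higher by 6.21 (SE 0.0824, adjusted p = 5.47e-08) on human arrays, a change of 7.84 (SE 0.0959, adjusted p = 8.82e-15). The fibroblasts were higher on both, by 6.62 and 2.36. The second rhesus probe set had no call in any source (cortex -0.10, fibroblasts 0.09), and with both averaged the rhesus cortex difference was -0.86, short of the minimum. The 5 human probe sets of PCDH7 differed as much among themselves. Cortex was higher with 3 of them, by 6.21, 4.16 and 3.24, lower with the fourth, by -1.68, and not called with the fifth, whose mean of 2.90 lay at the control level. The fourth was the human probe set with the pattern of the rhesus arrays, with fibroblasts higher by 6.57 against 6.62.

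**Figure D4:**
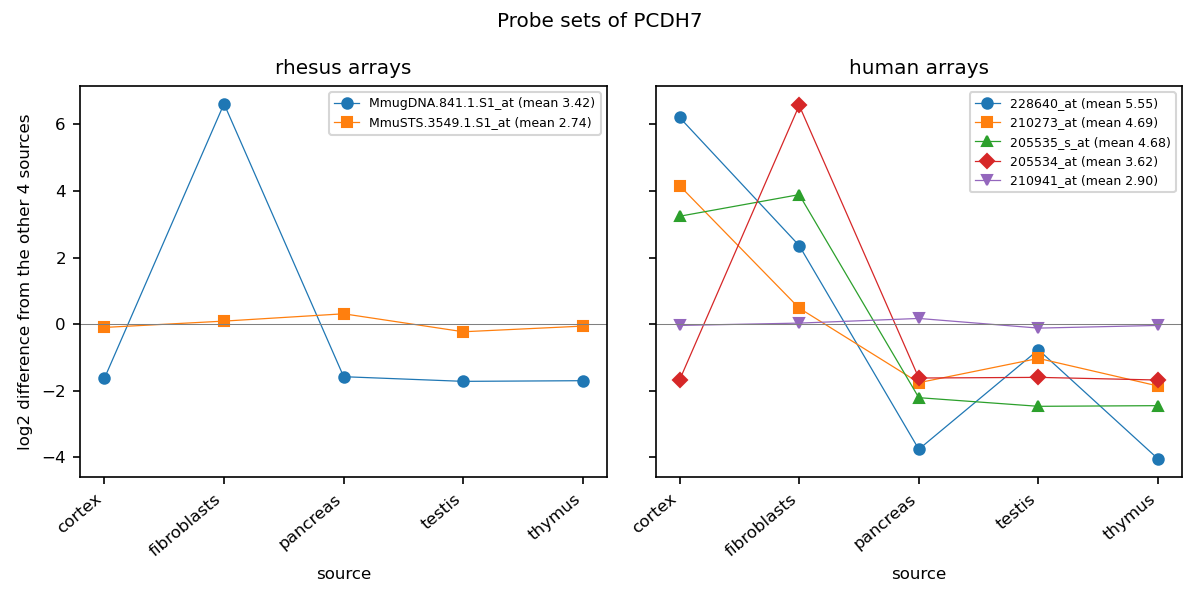
Log2 difference between a source and the mean of the other 4 for every probe set of PCDH7, 2 on rhesus arrays (left) and 5 on human arrays (right), with the mean log2 value of each over its 10 arrays in the legend. The human probe set drawn with red diamonds follows the bright rhesus probe set, with 6.57 in the fibroblasts and -1.68 in cortex, while 3 others are higher in cortex.

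The remaining delta1 genes moved less by their brightest probe sets. PCDH11X, an X-linked protocadherin, read 9.73 and 9.64 in testis, 9.61 and 9.51 in thymus, 8.90 and 8.96 in cortex, 8.79 and 8.80 in the fibroblasts and 7.48 and 7.89 in pancreas on rhesus arrays, and was lower in pancreas by -1.56 (SE 0.0993, adjusted p = 2.39e-05). Its second rhesus probe set moved more, higher in cortex by 3.56 and in testis by 4.08, with thymus at -2.75. The third rhesus one was called in testis alone, higher by 1.41. On human arrays PCDH11X read 4.02 and 3.49 in testis and 2.61 to 2.77 elsewhere, a testis difference of 1.07 (SE 0.125, adjusted p = 0.00142). PCDH1, known from epithelium of the airways, read 4.86 and 5.53 in pancreas on human arrays and 3.87 to 4.32 elsewhere, a pancreas difference of 1.09 (SE 0.166, adjusted p = 0.00232). The other human probe set of PCDH1 had no call (pancreas 0.04). With spiked controls as the scale, no member was called higher in pancreas on human arrays.

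Delta2 protocadherins included PCDH8, whose cortex difference was 8.38 on rhesus and 7.42 on human arrays. PCDH8 is known from neurons, where activity induces it. It read 10.92 and 11.00 in cortex on rhesus arrays and 2.47 to 2.73 on the other 8, and 10.14 and 10.23 against 2.67 to 2.89 on human arrays. It stood 8.25 (SE 0.038, adjusted p = 2.65e-10) and 7.31 (SE 0.037, adjusted p = 1.17e-09) above the next source, pancreas, and all sources but cortex lay below the control level, so these differences were taken against background. PCDH10 read 8.55 and 8.54 in cortex on rhesus arrays against at most 4.06 elsewhere, and 6.91 and 6.52 against at most 3.62 on human arrays. Its cortex difference was 5.39 on rhesus arrays and 3.40 on human arrays, with 5.53 and 5.18 for the next human probe sets. PCDH19, a gene of inherited epilepsy whose protein pairs with N-cadherin, was on human arrays alone and read 9.64 and 9.74 in cortex and 2.57 to 3.76 elsewhere, a cortex difference of 6.29 (SE 0.0351, adjusted p = 1.73e-09).

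PCDH18 and PCDH17 were both high in the fibroblasts, and of these only PCDH17 was also high in cortex. PCDH18 read 10.66 and 10.77 in the fibroblasts on rhesus arrays, 7.49 and 7.33 in testis, 5.35 and 4.96 in cortex, 4.63 and 4.22 in pancreas and 3.75 and 3.65 in thymus. On human arrays it read 10.44 and 10.28, 6.63 and 7.05, 5.24 and 5.52, 4.71 and 4.41, and 4.17 and 3.93, in the same order. Sources did not overlap on either array type, and the fibroblasts stood 3.30 (SE 0.176, adjusted p = 1.27e-05) and 3.52 (SE 0.191, adjusted p = 4.86e-05) above testis. The dimmer probe set of each array type also gave the fibroblasts as single highest source. Its testis difference was 0.5 on rhesus arrays, not called, and -1.16 on human arrays, called lower. By the brightest probe sets, no other member had the fibroblasts as single highest source on both array types. With dimmer probe sets, PCDH7 on human arrays (6.57) and CDH11 on rhesus arrays (4.3) had that source too. PCDH18 was also the member that was lower in cortex on both array types, by -1.41 and -1.07, although the human value was -0.93 without the first human cortex array and -0.83 with spiked controls as the scale.

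PCDH17, on human arrays alone, read 9.43 and 9.29 in the fibroblasts, 9.21 and 9.35 in cortex, 6.92 and 6.76 in pancreas, 4.34 and 5.49 in testis and 3.78 and 4.16 in thymus. Fibroblasts and cortex overlapped, with a difference of 0.08 (SE 0.359, adjusted p = 0.948), and both were called higher than the rest, by 3.11 and 3.01. All 3 probe sets of PCDH17 were higher in both sources.

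PCDH12, a protocadherin of endothelial cells, was at or below the control level in every source mean on rhesus arrays. On human arrays PCDH12 read 4.17 and 4.36 in testis, 3.71 and 4.12 in thymus, 3.86 and 3.71 in cortex, 3.32 and 3.70 in the fibroblasts and 2.68 and 2.94 in pancreas, and it was lower in pancreas by -1.06 (SE 0.154, adjusted p = 0.00194). Pancreas was thus the lowest source for PCDH12 and the highest for CDH5 on the same arrays.

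Clustered protocadherins were mostly dim on human arrays. Of the 21 measured there, 11 had no source mean above the control level, and those with a call were PCDHA5, PCDHA9, PCDHB4 and PCDHB6, higher in cortex, and PCDHB14, higher in testis. Alpha genes share their last exons, and beta genes resemble each other closely, so probe sets of these genes may take up RNA of their neighbours. In the rhesus gene table PCDHB1 to PCDHB5 lie side by side, and so do 7 further beta genes from PCDHB7 to PCDHB13. PCDHB4 read 6.49 and 6.57 in cortex on rhesus arrays and 2.74 to 4.12 elsewhere, and 5.14 and 5.05 against 2.40 to 2.95 on human arrays. By the brightest probe sets it was the clustered gene with cortex as single highest source on both array types, 2.77 (SE 0.235, adjusted p = 9.71e-05) and 2.37 (SE 0.134, adjusted p = 4.35e-05) above the next source. Both rhesus probe sets of PCDHB4 were higher in cortex, by 3.36 and 2.68. The other human probe set had almost the same mean, 2.99 against 3.03, and no call (cortex -0.12). PCDHB3, the neighbour of PCDHB4, was higher in the fibroblasts on rhesus arrays, at 4.54 and 4.84 there, but pancreas was close at 4.43 and 4.25, and cortex read 3.46 and 3.44. On both array types PCDHB1 stayed at or below the control level.

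PCDHB11 and PCDHB5 were low in a single source, thymus, on rhesus arrays. PCDHB11 read 2.97 and 3.14 in thymus and 6.48 to 7.23 on the other 8 arrays, and PCDHB5 read 3.11 and 3.13 in thymus and 5.24 to 6.28 elsewhere. Thymus was lower by -3.72 (SE 0.0756, adjusted p = 1.36e-07) and -2.69 (SE 0.0896, adjusted p = 1.06e-06). On human arrays both were at or below the control level in every source, and the thymus differences changed between array types by 3.61 and 2.66 (adjusted p = 6.02e-10 and 5.18e-10). PCDHB14, on human arrays alone, read 4.25 and 4.06 in testis and 2.79 to 2.91 elsewhere, and testis was its single highest source, 1.24 above the next (SE 0.0594, adjusted p = 2.87e-05).

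The alpha genes with high values on rhesus arrays did not have a cortex pattern. PCDHA11 read 11.68 and 11.69 in testis, 9.13 and 9.08 in cortex, 7.57 and 7.80 in the fibroblasts, 7.19 and 7.80 in pancreas and 5.84 and 5.65 in thymus. Testis was its single highest source, 2.58 above cortex (SE 0.193, adjusted p = 5.31e-05), and its 2 dimmer probe sets had no call. PCDHA5 read 10.33 and 10.66 in pancreas, 9.60 and 9.56 in thymus, 9.36 and 9.28 in the fibroblasts, 8.89 and 8.94 in cortex and 8.83 and 8.86 in testis. Of its 5 dimmer rhesus probe sets, 2 were higher in cortex, by 3.39 and 1.17, and the single human probe set was higher in cortex by 1.11 (SE 0.0941, adjusted p = 0.000235).

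Pancreas values had a trait of their own. Of the 8 rhesus members with no source mean above the control level, all 8 had their highest mean in pancreas, as had 81.3% of all 2278 such genes, and on human arrays 14 of 17 did, against 80.7% of 5791 genes. Their median pancreas difference was 0.26 and 0.09, against 0.13 and 0.07 over all such genes. Higher in pancreas were 2 members on rhesus arrays, CDH5 and PCDHA5, against 9.81% of all genes, and 5 on human arrays, CDH1, CDH5, CDH22, CDH26 and PCDH1, against 5.01%. After quantile normalization rhesus arrays gave 4 higher and 11 lower in pancreas in place of 2 and 13. With spiked controls as the scale the human arrays gave 0 higher and 35 lower in pancreas in place of 5 and 12, and the rhesus arrays 1 and 23. Spiked controls had means of 11.15 in pancreas and 9.59 to 10.29 in the other sources on rhesus arrays, and 11.38 against 9.93 to 10.50 on human arrays. With that scale the median of all genes in pancreas moved from -0.10 to -1.23 on the rhesus and from 0.03 to -1.08 on human arrays, and in the fibroblasts from 0.03 to 0.84 and from 0.00 to 0.70.

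Higher in the fibroblasts were 6 members on rhesus arrays (CDH11, CDH13, CDH23, PCDH7, PCDH18 and PCDHB3), against 18% of all genes, and 4 on human arrays (CDH11, PCDH7, PCDH17 and PCDH18), against 11.3%. With spiked controls as the scale these counts were 9 higher and 2 lower on rhesus arrays in place of 6 and 10, and 6 higher and 3 lower on human arrays in place of 4 and 8. Higher in testis were 7 members on rhesus arrays (CDH3, CDH5, CDH11, PCDH18, PCDHA11, PCDHB5 and PCDHB11), against 16.1% of all genes, and 6 on human arrays (CDH2, CDH5, CDH11, PCDH9, PCDH11X and PCDHB14), against 8.67%. The testis shares of 18.4% and 11.3% of the members were near these backgrounds. Higher on both array types by the brightest probe sets were CDH11, PCDH7 and PCDH18 in the fibroblasts, CDH5 in pancreas, and CDH5 and CDH11 in testis.

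Agreement between array types was counted over the 34 members on both. A single highest source was found on both array types for 11 members, and it was the same source for 9 of them. These were CDH8, CDH9, CDH10, CDH12, CDH18, PCDH8, PCDH10 and PCDHB4 with cortex and PCDH18 with the fibroblasts. The other two were CDH22, with cortex on the rhesus and pancreas on human arrays, and PCDH7, with fibroblasts and cortex. Over all 11956 genes on both array types, 2103 had such a source on both and 2028 had the same. The source difference changed between array types for 8 of 34 members in cortex, against 20.3% of all genes, for 3 in the fibroblasts, against 16.8%, for 6 in pancreas, against 21.8%, for 3 in testis, against 13.7%, and for 6 in thymus, against 17.5%. The members that changed most often were PCDH7 and CDH3, in 4 sources each.

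**Figure D5:**
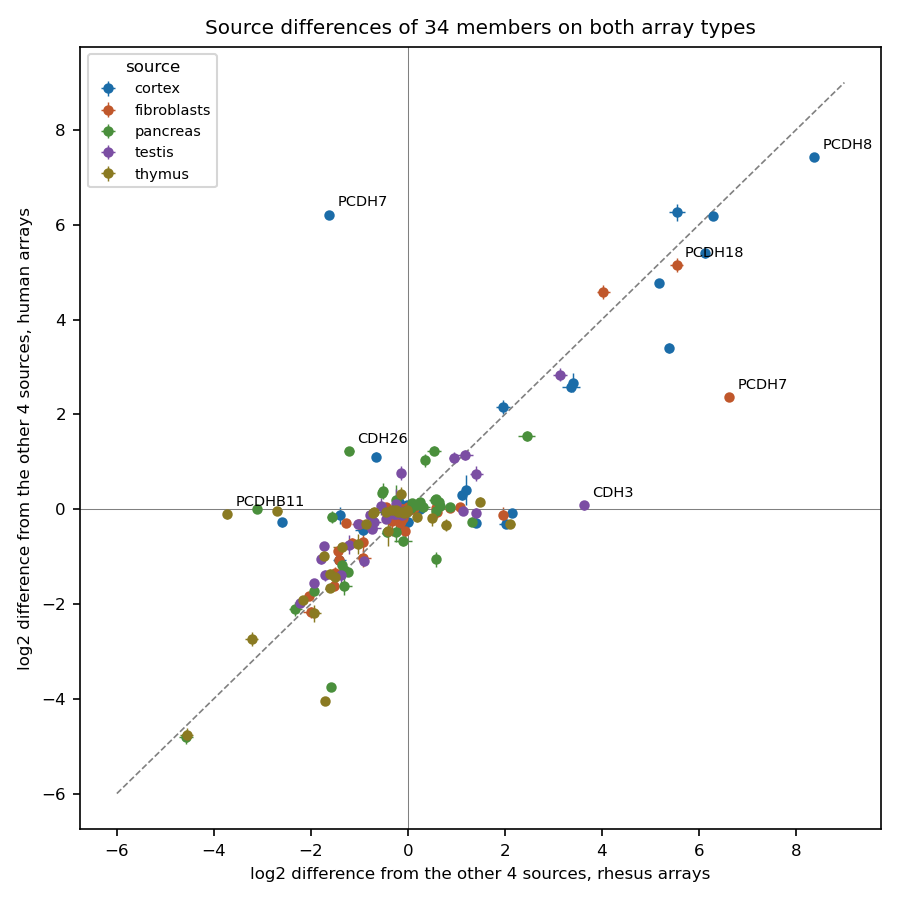
Log2 difference between a source and the mean of the other 4 on rhesus arrays (horizontal) and the human arrays (vertical) for the 34 members on both, coloured by source, with bars for the standard error and a dashed line where both are equal. Most cortex points lie near the line, PCDH7 in cortex lies at -1.63 and 6.21, and CDH3 in testis at 3.63 and 0.08.

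Several probe sets of a gene gave another view of these readings. On rhesus arrays 14 members had more than 1 probe set, and all probe sets of 4 of them had the same calls in every source. Of these 4, CDH19 had no call with any probe set. On human arrays 25 members had more than 1, and 11 had the same calls. Of these 11, only CDH2 and CDH22 shared a higher or lower call, and the rest had no call with any probe set. Opposite calls within an array type were found on human arrays for PCDH7 and PCDH9 and on rhesus arrays for no member. CDH11 had the same 5 calls with all 3 rhesus probe sets and with 3 of its 4 human ones, and CDH3 the same calls with both rhesus ones. The order of the upper sources of CDH11 was not shared by all of these. Its dimmest rhesus probe set had cortex at 2.26 and the fibroblasts at 1.64. A dimmer human one had cortex at 2.59 and the fibroblasts at 1.95. On human arrays only the brightest probe set gave the fibroblasts as single highest source of CDH11. On rhesus arrays only the second brightest did, with the fibroblasts higher by 4.3.

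Catenins are the inner partners of the classical cadherins. CTNNA2, the alpha catenin of neurons, had a mean of 10.47 in cortex on the rhesus and 9.33 on human arrays, and CTNND2, the neuronal delta catenin, had means of 11.35 and 11.24 there. Of 7 catenins on rhesus arrays 3 were higher and 2 lower in cortex, against 16.6% and 21.1% of all genes, and of 10 on human arrays likewise 3 and 2, against 11% and 9.99%. In thymus 6 of 7 were lower on rhesus arrays, against 18.1% of all genes, and 5 of 10 on human arrays, against 10.1%. The median catenin difference in thymus was -2.12 on rhesus arrays, against -0.06 over all genes, and -1.02 on human arrays, against -0.04.

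Transcription factors that repress CDH1 (SNAI1, SNAI2, ZEB1, ZEB2 and TWIST1) were counted as well. In pancreas 3 of 4 were lower on rhesus arrays, against 23.8% of all genes, and 4 of 5 on human arrays, against 15.7%. In the fibroblasts 3 of 4 and 3 of 5 were higher, against 18% and 11.3%. Desmosomal cadherins, which join epithelial cells through desmosomes, numbered 6 on rhesus arrays, of which DSC2 and DSG2 were higher in pancreas, against 9.81% of all genes, and 7 on human arrays, of which DSG2 was, against 5.01%. Of the more distant cadherin genes (the FAT, CELSR, calsyntenin and related genes), 4 of 13 were higher and 2 lower in cortex on rhesus arrays, against 16.6% and 21.1% of all genes, and 7 of 17 higher and 1 lower on human arrays, against 11% and 9.99%. Clustered genes with a second letter in the symbol, the gamma genes among them, had 1 of 2 on the rhesus and 1 of 14 on human arrays higher in cortex, in both cases PCDHAC2, against the same 16.6% and 11%. ADAM10, a protease that cuts cadherins, was higher in thymus and lower in pancreas on both array types.

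Members at or below the control level in every source numbered 8 of 38 on the rhesus and 17 of 53 on human arrays, and for these no level can be told from background. Of all genes, 2278 of 14132 on rhesus and 5791 of 19775 on human arrays were likewise at or below it. Members above it in all sources numbered 11 and 14. By source, 27 rhesus and 30 human members were above it in cortex, 22 and 21 in pancreas, 17 and 21 in testis, 15 and 20 in the fibroblasts and 13 and 19 in thymus. Cortex thus had the most and thymus the fewest members above the control level on both array types. How many of all genes were above it in each source was not counted, so these counts have no background to be read against.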

How the data were processed

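Log2 expression values of rhesus macaque RNA on 10 rhesus and 10 human arrays were analysed, 1 value per probe set and array. The authors deposited 1 table of log2 values per array type, and the submitters' processing notes name RMA, with no version, and whether all arrays of a type were processed together is not given in the sources read. No further normalization was applied. Symbols were those of the platform annotation, and 38 of 38 rhesus members matched a rhesus gene table (T2T-MMU8v2.0), with 0 symbols changed. Levels of different probe sets are not comparable.

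Sources were compared in R 4.3.3 with limma 3.58.1 (lmFit, eBayes), 1 fit for the rhesus (52766 probe sets) and 1 for the human arrays (54613), control probe sets aside, with Benjamini-Hochberg adjustment and all 10 arrays sharing 1 spread. Array types were compared in a fit of 20 arrays over 11956 genes. Members, lists and tests were chosen with earlier results of these data known. Full values were due to CDH1, CDH2 and CDH5, to up to 4 members per source called higher on both array types, to up to 3 with a single highest source on 1 array type, and to opposite calls. Other members were added after their values were seen. On simulated data for testis, 83 of 100 rhesus and 84 of 100 human probe sets changed by 1.5 were recovered, and 100 and 98 of those changed by 3. Replicate numbers were not found to pair arrays of different sources (10 pairs of sources per array type, correlations of -0.0252 to 0.0101 on the rhesus and -0.0341 to 0.0177 on the human arrays). Alternatives were other scalings, filters, tests and ways to read a gene. The number of arrays limits the precision.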

Additional observations from a re-analysis of the deposited data

Results flagged for a closer look

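For 2 members the same contrast was called in opposite directions on the 2 array types, by the brightest probe set of each. With the probe sets of a gene averaged, neither pair of opposite calls was kept: PCDH7 in cortex was -0.86 on rhesus arrays, and CDH26 in pancreas was -0.62 on rhesus and 0.42 on human arrays. PCDH7 in cortex was lower on the rhesus and higher on the human arrays, with a change of 7.84 on the log2 scale (SE 0.0959, limma adjusted p = 8.82e-15). CDH26 in pancreas was lower on the rhesus and higher on the human arrays, with a change of 2.43 (SE 0.114, limma adjusted p = 4.6e-09).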

How the results depend on the processing

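Of 27 counts of members, the ordinary analysis of variance (22 counts) and the replicate block kept every one they could be run for. With the block 27 of 27 were equal, for example 17 members higher in cortex on either array type and 16 and 12 lower in thymus. Within an array type each replicate number held an array of every source. The block could thus change the spread but not the differences, and equal counts say little. The replicate numbers were not found to pair arrays. Counts of members higher in cortex stayed within 15 to 18 on the rhesus and 14 to 17 on the human arrays under all alternatives. Quantile normalization gave 4 rhesus members higher in pancreas and 10 pancreas differences between array types. Subtraction of array medians, or leaving out dim probe sets, gave 3 human members higher in pancreas. With spiked controls as the scale, the rhesus arrays gave 2 lower in the fibroblasts and 1 higher and 23 lower in pancreas, the human arrays gave 0 lower in cortex, 3 lower in the fibroblasts and 0 higher and 35 lower in pancreas, and CDH1 in pancreas on the human arrays reversed to -0.09. Averaging the probe sets of each gene gave 2 lower in cortex and 1 higher in pancreas on the rhesus arrays, 2 higher in pancreas on the human arrays and 5 testis differences between array types, and PCDH9 in testis reversed to -0.07. It also ended the calls of PCDH7 in cortex (-0.86), CDH26 in pancreas (-0.62), CDH5 in testis (0.39) and PCDH18 in testis (0.96) on rhesus arrays and of CDH26 (0.42) and CDH1 (0.57) in pancreas on human arrays. CDH2 in the fibroblasts gained a call with spiked controls (1.68). With no minimum difference, which admits smaller changes by construction, the rhesus arrays gave 10 lower in cortex, 16 lower in the fibroblasts, 15 higher in pancreas, 22 lower in testis and 4 higher in thymus. The human arrays then gave 4 lower in cortex, 13 lower in the fibroblasts, 22 higher in pancreas, 24 lower in testis, 1 higher and 19 lower in thymus and 34 with a single highest source. Differences between array types then numbered 14 in thymus, 13 in testis, 19 in pancreas, 11 in the fibroblasts and 16 in cortex. Leaving out 1 array in turn gave 0 to 1 human members lower in cortex, the 0 without the first human cortex array, and 3 to 5 testis differences between array types. Of the named differences, those close to the minimum of 1 lost their call without single arrays: CDH1 in pancreas (0.97 to 0.99), PCDH18 in cortex (-0.93) and CDH18 in the fibroblasts (-0.89 and -0.96) on human arrays, and CDH22 in the fibroblasts (-0.95 to -1.0), CDH26 in testis (-0.97 to -1.0) and PCDHA11 in pancreas (-0.76) on rhesus arrays. The cause of these changes was not tested beyond the construction named.

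Precision is limited by 2 arrays per source, by members near the control level, where smaller differences cannot be told from background, and by the brightest probe set, which stands for a gene whatever its other probe sets show.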
